A study of Mus musculus with 11 samples.

Results

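Closely packed cells, many of them in bands, were mapped in 3 sections labelled as mouse hippocampus and imaged by MERFISH, which images individual RNA molecules in place by decoding fluorescent barcodes. A segmented object was counted as packed when its volume was at least 100 µm3 and at least 12 other such objects had their centres within 25 µm. No filter on transcripts was used. The rule found 9331 packed objects among the 115833 objects of sufficient volume in these 3 sections, of 831598 objects in all 11 sections of the series. Volume and position chose the members, so their volume, spacing and share of objects are given as a description with no test.

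The 3 sections came from wild-type male C57Bl/6 mice aged 10 to 12 weeks. CONTROL 3 is from a mouse given isotype-matched antibodies. CONTROL ICI 3 is from a mouse given immune checkpoint inhibitors (ICI), for a time that its labels do not state. These were antibodies against CTLA-4 at 1 mg per dose, 3 doses a week, and against PD-1 at 200 µg per dose, 2 doses a week. MELANOMA ICI 1 is from a mouse with tumours of the mouse melanoma line D4M-3A.UV2, grown from 500000 cells injected into the skin on both sides and left to engraft for 1 week, before the same inhibitors for 3 weeks. Each treatment is thus represented by 1 section of 10 µm, and no mouse with a tumour and isotype antibodies is among them. The labels do not say which animal gave which section. The tables hold 1 transcript total per object and no genes, so the tissue label was not checked against markers and no cell type or hippocampal field is named.

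The principal neurons of the hippocampus are known to be stacked in thin, sharply bent layers. The cell bodies of the pyramidal neurons form one curved sheet, and the granule neurons of the dentate gyrus form another that folds back on itself. The tissue between the layers holds mostly dendrites, axons, glia and scattered interneurons. DAPI binds DNA and marks nuclei, and PolyT is a probe for polyadenylated RNA that marks the cell body.

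These 3 sections share an imaging run, read from the leading digits of the object identifiers, and their median object volume was 1350 to 1515 µm3, against 161 to 205 µm3 in the other 8 sections. They held 16416 (CONTROL ICI 3) to 53522 (CONTROL 3) objects and 349960 to 3164943 transcripts, and shared 0 object identifiers. CONTROL ICI 3 stood apart among them. It was the smallest, and 15.9% of its unpacked objects held no transcript, against 4.46% in CONTROL 3 and 5.51% in MELANOMA ICI 1. The mean ratios of whole sections, and the differences from the other 8 sections, are therefore also given without it.

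Packed objects made up 5.87% of objects in CONTROL 3 (3130 of 53360; 95% Wilson interval 5.67% to 6.07%), 13.8% in CONTROL ICI 3 (2266 of 16366; 13.3% to 14.4%) and 8.53% in MELANOMA ICI 1 (3935 of 46107; 8.28% to 8.79%). The intervals cover counting error only. The share was highest in the smallest section. The median object of every one of these sections had 5 neighbours within 25 µm, and the most crowded had 32, 28 and 28. Packed objects lay in only 23.5%, 29.9% and 24.4% of the imaging fields, in the same order.

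**Figure D1:**
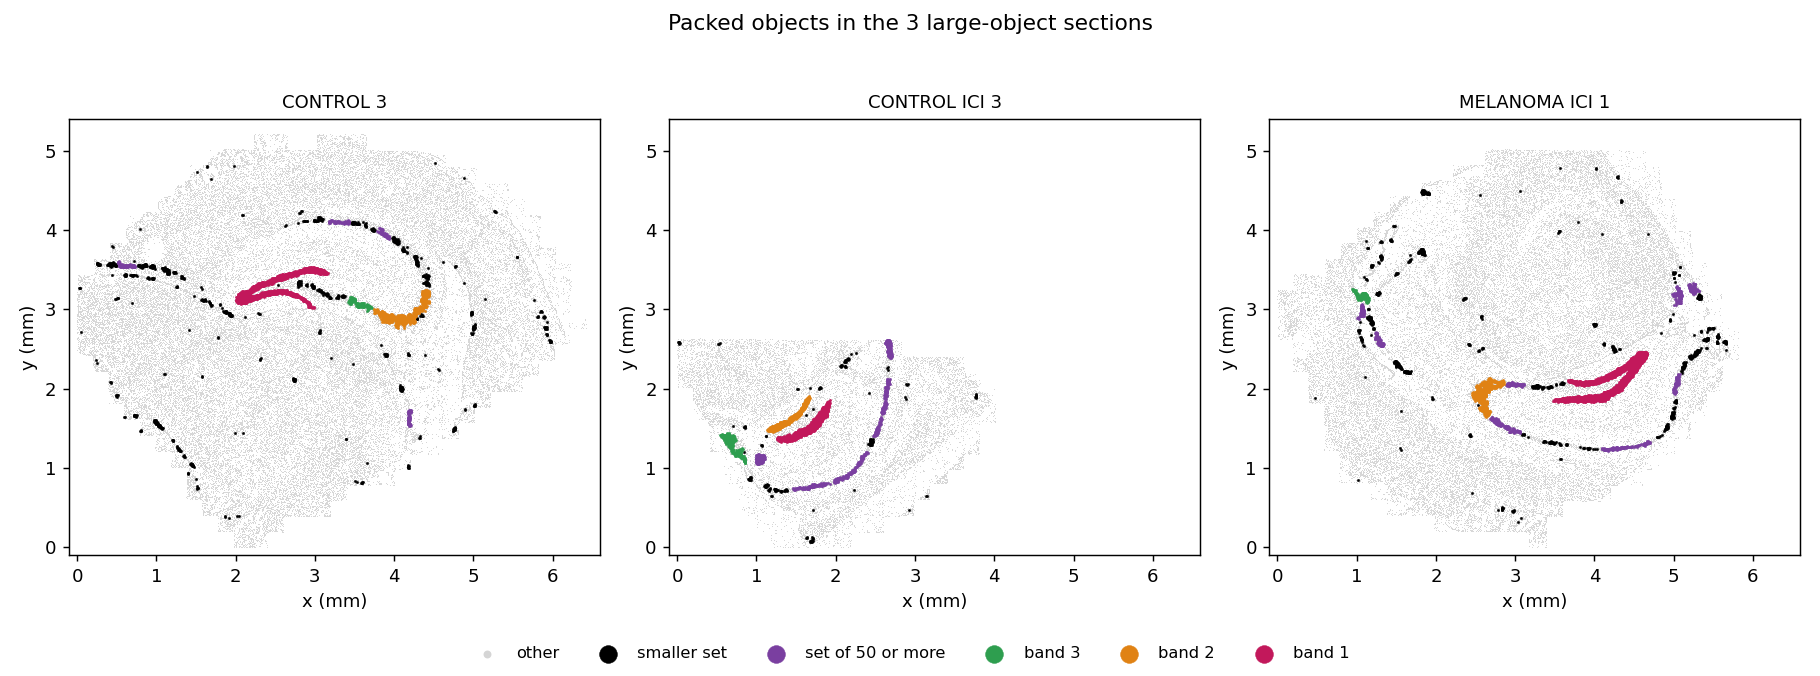
Positions of all objects of at least 100 µm3 in the 3 sections (x and y in mm from each section's lowest position, same scale), with the connected sets of packed objects in colour: bands 1, 2 and 3 are the sets with the most members, purple marks other sets of 50 or more, and black marks smaller sets. In CONTROL 3 and MELANOMA ICI 1 band 1 is a folded band and band 2 a bent one facing its opening, and in CONTROL ICI 3 bands 1 and 2 run side by side.

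Packed objects were linked into sets when their centres lay within 25 µm of each other. CONTROL 3 had 131 sets, CONTROL ICI 3 had 44 and MELANOMA ICI 1 had 114, but few of them held most members. Sets of 50 or more, called bands below whatever their shape, numbered 7, 9 and 11 and held 71.4%, 91.8% and 80.0% of packed objects. Sets of fewer than 5 objects held 4.06%, 1.77% and 2.85%. Linking within 40 µm left the largest set of each section as it was, at 1244, 732 and 1703 members.

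The largest set of CONTROL 3 and of MELANOMA ICI 1 was a band folded on itself. In CONTROL 3 it had 1244 members along a path of 1978 µm, although its ends lay only 475 µm apart, which makes the path 4.16 times the straight distance. In MELANOMA ICI 1 it had 1703 members along 1917 µm, with ends 319 µm apart, or 6.02 times the straight distance. Its mean width was 79.3 µm in CONTROL 3 and 105 µm in MELANOMA ICI 1, taking the area within 12.5 µm of a member over the path length. Both were folded bands of nearly the same path length that differed in width and in members.

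CONTROL ICI 3 had no folded set. Its largest sets were 2 gently bent bands lying beside each other, of 732 members over 871 µm and 419 members over 699 µm. Their paths were 1.06 and 1.04 times the straight distance. They were as crowded as the folded bands of the other sections, at 8407 and 8216 members per mm2 against 7930 in CONTROL 3 and 8430 in MELANOMA ICI 1.

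The set ranked second in CONTROL 3 and in MELANOMA ICI 1 was wider and less crowded than the folded band. It had 620 members over 913 µm with a width of 108 µm in CONTROL 3, and 559 members over 592 µm with a width of 137 µm in MELANOMA ICI 1. It held 6288 and 6916 members per mm2. The remaining bands of these 2 sections were narrower than the bent one. In CONTROL ICI 3 a set of 135 members was a patch rather than a strip, 144 µm long and 111 µm wide. Over all 27 bands of the 3 sections the width ran from 39.4 to 137 µm with a median of 65.2 µm, and the members per mm2 from 4415 to 8477 with a median of 6081. The longest thin band of MELANOMA ICI 1 had 122 members over 627 µm at a width of 39.4 µm, and that of CONTROL ICI 3 had 137 members over 596 µm at 46.1 µm.

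Spacing inside the packed places was nearly the same in the 3 sections. The median distance from a packed object to its nearest neighbour was 8.06 µm in CONTROL 3, 8.03 µm in CONTROL ICI 3 and 8.07 µm in MELANOMA ICI 1, against 11.9, 12.1 and 12.1 µm for unpacked objects. Counted over a disc of 25 µm radius, the objects around a packed object had a summed volume of 7.88, 8.53 and 8.34 µm3 per µm2 of section, against 4.70, 3.98 and 4.46 around an unpacked object. The packed places thus held 1.68 to 2.14 times the segmented volume per area, although their objects were smaller.

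Packed objects were small. Their median volume was 880 µm3 in CONTROL 3, 908 µm3 in CONTROL ICI 3 and 900 µm3 in MELANOMA ICI 1, while unpacked objects had medians of 1568, 1469 and 1583 µm3. The packed median was 896 ± 14.1 µm3 over the sections (SD, n = 3) and the unpacked one 1540 ± 62.0 µm3, a mean log2 ratio of -0.78 ± 0.075, and -0.82 without CONTROL ICI 3. Objects of at most 500 µm3 made up 19.4%, 16.3% and 16.0% of packed objects and 8.80%, 10.0% and 8.25% of the others. Volume and spacing are tied through the rule, which is why no test is given. Packed objects were also slightly longer for their breadth, with a median anisotropy (long over short axis) of 1.42, 1.38 and 1.41 against 1.31, 1.28 and 1.30.

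Objects next to the threshold differed little from each other. Objects with 12 neighbours, just inside it, numbered 711 in CONTROL 3 with a median of 983 µm3 and 52 transcripts, and those with 11, just outside it, numbered 934 with 1072 µm3 and 50 transcripts. For CONTROL ICI 3 the values were 1099 µm3 and 37.5 transcripts for 336 objects inside, and 1154 µm3 and 35 transcripts for 403 outside. For MELANOMA ICI 1 they were 1017 µm3 and 36 transcripts for 639 inside, and 1115 µm3 and 32 transcripts for 816 outside.

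Despite their size, packed objects held more transcripts than the unpacked objects of their section. The median was 57 transcripts per packed object in CONTROL 3 against 41 in the others, 36 against 9 in CONTROL ICI 3, and 43 against 22 in MELANOMA ICI 1. The packed median was the higher in 3 of 3 sections, by factors of 1.39, 4 and 1.95. The mean log2 ratio was 1.15 ± 0.78 (SD, n = 3; 2.22-fold), and 0.72 without CONTROL ICI 3. A two-sided exact sign-flip permutation test gave p = 0.25, which is the smallest p that 3 sections allow, so these ratios stand as a description. Single objects overlapped widely: a packed object ranked above an unpacked one in transcripts in 58.6%, 78.6% and 64.8% of all such pairs. Tied pairs were split evenly between the classes, so the share with strictly more transcripts was lower.

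Objects without a transcript were rarer among packed than among other objects. Those without any transcript made up 0.415% of packed objects in CONTROL 3 (13 of 3130; Wilson interval 0.243% to 0.709%), 1.28% in CONTROL ICI 3 (29 of 2266; 0.893% to 1.83%) and 0.508% in MELANOMA ICI 1 (20 of 3935; 0.329% to 0.784%). These intervals, too, cover counting error only. Objects with at least 10 transcripts made up 94.9%, 88.2% and 88.5% of packed objects, against 85.9%, 48.7% and 74.1% of the others. At the rich end, 20.4%, 6.88% and 15.02% of packed objects held at least 100 transcripts, against 18.2%, 2.16% and 8.26%. The gap between packed and other objects was thus wide at the poor end in all 3 sections and narrow at the rich end in CONTROL 3.

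Per volume the difference in transcripts was larger. Packed objects had medians of 7.06, 4.20 and 5.49 transcripts per 100 µm3 in CONTROL 3, CONTROL ICI 3 and MELANOMA ICI 1, and unpacked objects 2.87, 0.708 and 1.57. The mean log2 ratio was 1.89 ± 0.64 (SD, n = 3; 3.71-fold; exact sign-flip permutation p = 0.25), and 1.55 without CONTROL ICI 3. Volume enters both this ratio and the rule, so objects of like volume were also compared. Among objects of 750 to 1000 µm3, packed ones held a median of 59 transcripts in CONTROL 3 (n = 683) and unpacked ones 23 (n = 4324). In CONTROL ICI 3 they held 37 (n = 546) against 7 (n = 1381), and in MELANOMA ICI 1 they held 44 (n = 988) against 12 (n = 3591). Averaged over volume classes of 0.25 log2 units, packed objects held 2.56, 5.56 and 3.64 times the transcripts of unpacked objects as large as themselves.

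Packed objects held a larger share of each section's transcripts than of its segmented volume. The share of transcripts in packed objects was 6.73% in CONTROL 3, where they took up 3.53% of the segmented volume. It was 27.8% in CONTROL ICI 3 with 9.26% of the volume, and 12.4% in MELANOMA ICI 1 with 5.19%. Within 25 µm of a packed object the section held a median of 563, 366 and 495 transcripts per 1000 µm2, against 157, 32.1 and 84.5 around an unpacked object. The rule itself sets how many objects lie in this disc, so these values are a description of the packed places and support nothing.

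**Figure D2:**
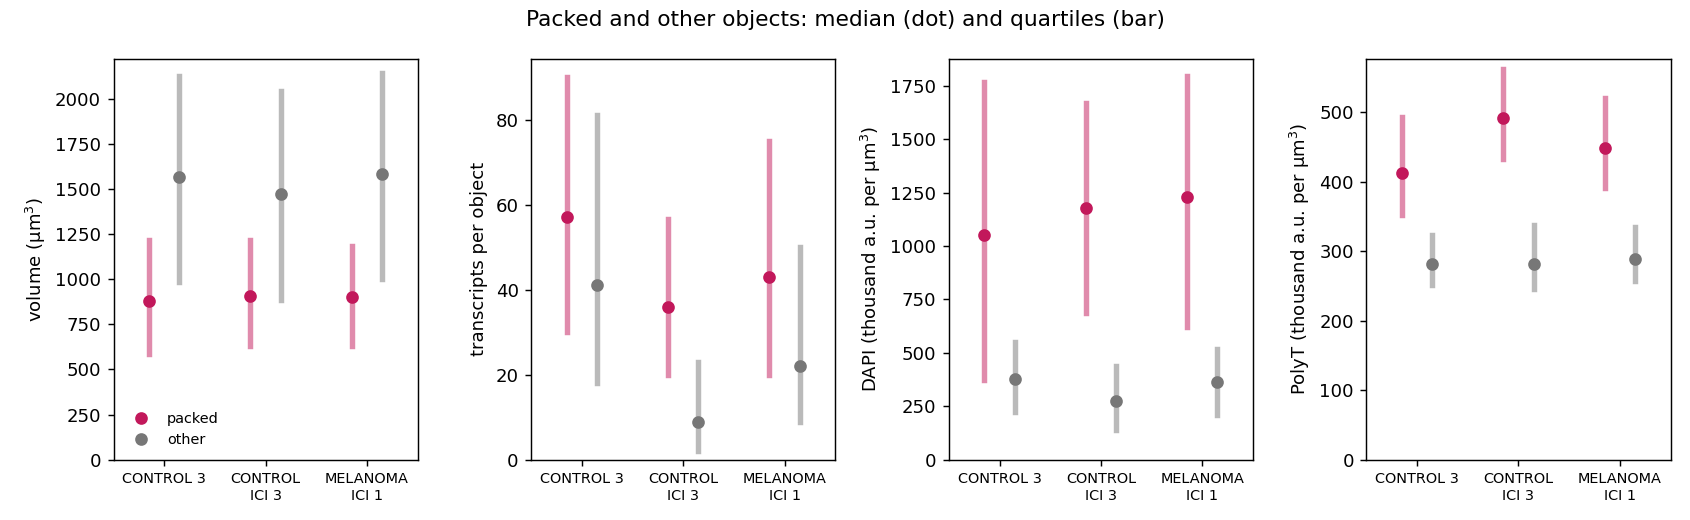
Volume (µm3), transcripts per object, and DAPI and PolyT per volume (k a.u. per µm3) of packed and other objects in each of the 3 sections, with dots at the median over objects and bars from the lower to the upper quartile. Packed objects are smaller (medians 880 to 908 µm3) and stain more densely in every section, and the quartile bars for transcripts overlap in every section.

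DAPI per volume was higher in packed than in other objects, with a wide spread inside the packed class. The medians were 1051, 1176 and 1229 k a.u. (kilo arbitrary units) per µm3 in packed objects of CONTROL 3, CONTROL ICI 3 and MELANOMA ICI 1, and 376, 277 and 364 in unpacked objects. The mean log2 ratio was 1.77 ± 0.30 (SD, n = 3; 3.42-fold; exact sign-flip permutation p = 0.25), and 1.62 without CONTROL ICI 3. The lower and upper quartiles of packed objects in CONTROL 3 were 375 and 1765, so its lower quartile lay at the median of the unpacked objects. Summed over the object, DAPI had medians of 869, 1060 and 1071 M a.u. (mega arbitrary units) in packed objects and 617, 364 and 595 in the others. The smaller objects thus carried 1.41 to 2.92 times the summed DAPI.

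PolyT per volume separated packed from other objects most evenly. The medians were 413, 492 and 448 k a.u. per µm3 in packed objects, and 282, 281 and 289 in the others. The mean log2 ratio was 0.66 ± 0.13 (SD, n = 3; 1.58-fold; exact sign-flip permutation p = 0.25), and 0.59 without CONTROL ICI 3. A packed object had the higher PolyT per volume in 89.7%, 93.8% and 93.4% of pairs, more often than for DAPI per volume (76.4%, 92.5% and 85.6%). That order depended on the stain values used. With the high-pass filtered stains the shares were 79.6%, 82.1% and 78.3% for PolyT and 76.3%, 89.3% and 84.5% for DAPI. PolyT was then ahead in CONTROL 3 only. Summed over the object, PolyT was lower in packed objects of CONTROL 3 (374 against 456 M a.u.) and MELANOMA ICI 1 (414 against 471) but higher in those of CONTROL ICI 3 (459 against 433).

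With further crowding inside the packed class, DAPI per volume went up and transcripts per object hardly moved. Packed objects with 12 to 14 neighbours had a median DAPI per volume of 652 in CONTROL 3, and those with 21 or more had 2273. The values were 723 and 1881 in CONTROL ICI 3, and 793 and 2025 in MELANOMA ICI 1. The median transcripts per object of the same classes were 54 and 58 in CONTROL 3, 36 and 39 in CONTROL ICI 3, and 42.5 and 38 in MELANOMA ICI 1. The median volume went from 949 to 747 µm3, from 1071 to 794 µm3 and from 1001 to 766 µm3. Per 100 µm3, transcripts therefore went from 6.24 to 7.52, from 3.71 to 4.94 and from 5.32 to 5.24. Summed DAPI per object went from 660 to 1621, from 837 to 1458 and from 881 to 1537 M a.u. These are medians over objects of 1 section each, and the classes are filled by different bands.

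In DAPI some bands of a section differed from each other more than packed objects differed from the rest. Band 1 of CONTROL 3, the folded band, had a median DAPI per volume of 1865 k a.u. per µm3, and band 2, the bent one, had 250, a factor of 7.47. In MELANOMA ICI 1 the folded band had 1800 and the bent band 299, a factor of 6.02. PolyT per volume followed the same order with smaller factors, 509 against 362 in CONTROL 3 (1.41) and 525 against 406 in MELANOMA ICI 1 (1.29). In CONTROL ICI 3 the 2 largest bands, which lay side by side, had nearly equal DAPI per volume of 1600 and 1778.

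Unlike PolyT, transcript totals did not follow DAPI between these bands. The folded band held a median of 64 transcripts per object in CONTROL 3 (quartiles 39 and 88) and the bent band 56.5 (31.8 and 101). That of MELANOMA ICI 1 held 47 (31 and 68.5) and the bent band 70 (40 and 110). The folded band thus had the higher median in the one section and the lower in the other, with overlapping quartiles in both. Transcripts per volume were lower in the folded than in the bent band of both sections, at 0.946 times in CONTROL 3 and 0.595 times in MELANOMA ICI 1. Members of the folded band were larger, at 878 against 758 µm3 in CONTROL 3 and 889 against 738 µm3 in MELANOMA ICI 1. Bands 1 and 2 of CONTROL ICI 3 held 38 and 36 transcripts at 883 and 856 µm3.

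**Figure D3:**
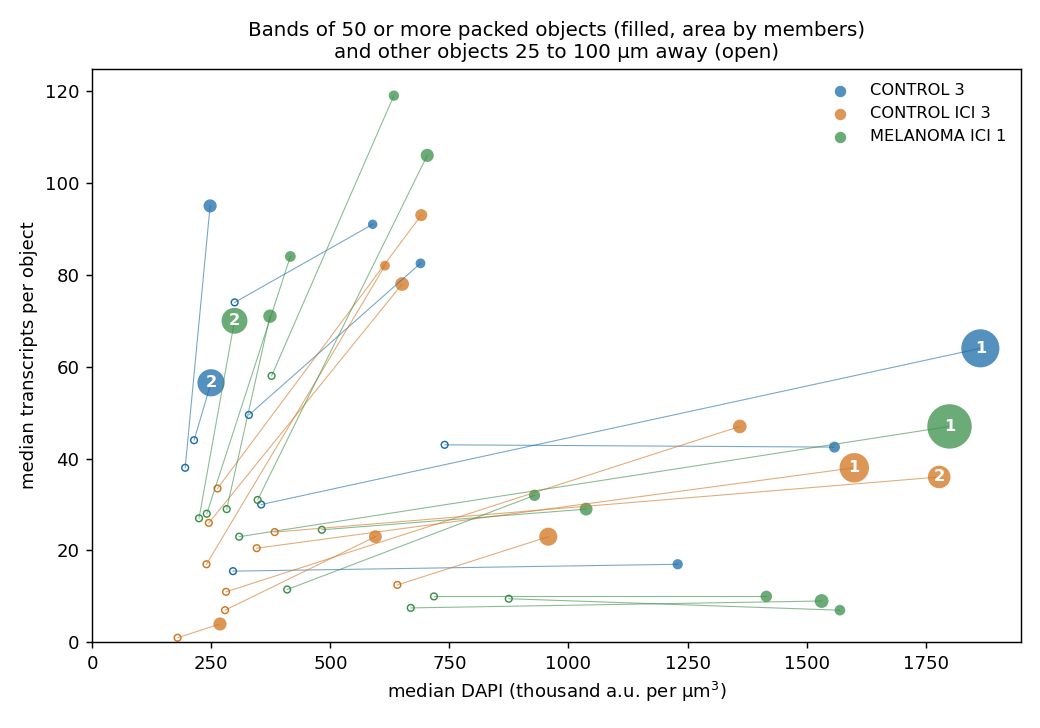
Median DAPI per volume (k a.u. per µm3) against median transcripts per object for the 27 bands of 50 or more packed objects (filled, area by number of members, colour by section, bands 1 and 2 numbered), each joined by a line to the median of the unpacked objects 25 to 100 µm from it (open). Bands 1 lie at 1600 to 1865 units with 38 to 64 transcripts, the bent bands 2 of CONTROL 3 and MELANOMA ICI 1 below 500 units, and no band above 1200 units exceeds 64 transcripts.

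Grouped by DAPI, the 27 bands fell along a wide range. Bands with at least 1200 k a.u. per µm3 numbered 10 and held 4673 members, with medians of 7 to 64 transcripts per object. Bands below 500 numbered 6 and held 1628 members, with medians of 4 to 95. Between 500 and 800 units 8 bands held 705 members, with medians of 23 to 119, and between 800 and 1200 units 3 bands held 459 members, with 23 to 32. The limits of these classes were chosen after the values were seen.

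Several thin bands, under 60 µm wide, were rich in transcripts. In MELANOMA ICI 1 the band of 122 members had a median of 106 transcripts and one of 65 members had 119, the highest of all bands. In CONTROL ICI 3 the thin bands of 137, 99 and 57 members held 78, 93 and 82 transcripts, more than its 2 largest bands. In CONTROL 3 thin bands of 56 and 50 members held 82.5 and 91. The median DAPI per volume of these 7 thin bands was 589 to 703. These 7 were picked out after their values were seen. In MELANOMA ICI 1 bands of 73 and 129 members, also under 60 µm wide, held 84 and 71 transcripts. Their DAPI per volume was lower, at 416 and 373. The remaining bands under 60 µm wide held fewer transcripts. These were 23 in a band of 119 members in CONTROL ICI 3, and 42.5 and 17 in bands of 78 and 64 members in CONTROL 3. A band of 71 members in MELANOMA ICI 1 held only 7, so thin bands were not rich as a class. Band 3 of CONTROL 3, 66.6 µm wide with 124 members, was as rich as the 7 picked out, at 95 transcripts. Its DAPI per volume was only 248.

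Other bands were dense in DAPI and poor in transcripts. In MELANOMA ICI 1 bands of 140, 87 and 71 members had medians of only 9, 10 and 7 transcripts, with DAPI per volume of 1531, 1415 and 1570. The unpacked objects beside these 3 bands also held few transcripts, at 7.5, 10 and 9.5, and were dense in DAPI, at 669, 718 and 875. In CONTROL 3 a straight band of 64 members had 17 transcripts at a DAPI of 1229. In CONTROL ICI 3 a band of 123 members had the lowest value of all, 4 transcripts against 1 beside it, with a low DAPI of 268 and the highest PolyT per volume of any band, 603. Packed objects were thus rich in transcripts as a class, yet 5 of 27 bands had medians of 17 transcripts or fewer.

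To see whether bands differed from the tissue beside them, each was set against the unpacked objects 25 to 100 µm away, a comparison added after the data were seen. Transcripts per volume were higher in the band than beside it in 27 of 27 bands, with ratios of 1.01 to 9.98 and a median of 2.56. Volume was lower in the band in 27 of 27, at 0.569 to 0.877 times that beside it. The rule bears on volume, which divides the transcripts here, so the per-volume count is partly built in. Transcripts per object were higher in 24, equal in 1 and lower in 2, with a median ratio of 2.05. The lower ones were the band of 71 members in MELANOMA ICI 1 (7 against 9.5) and that of 78 members in CONTROL 3 (42.5 against 43). Bands of a section share that section, so these counts describe 3 sections and carry no test.

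The stains per volume gave the same direction beside every band, again with the smaller volume of the bands as divisor. DAPI per volume was higher in 27 of 27 bands, by 1.17 to 5.83 times with a median of 2.11, and PolyT per volume in 27 of 27, by 1.23 to 2.00 times with a median of 1.57. The bent bands lay in dim surroundings. Their own DAPI of 250 in CONTROL 3 and 299 in MELANOMA ICI 1 was below the section's unpacked median, but the objects beside them had 214 and 224. Beside the folded bands the unpacked objects had 355 and 309, so the surroundings of folded and bent bands differed less than the bands did. Summed DAPI per object was lower in the bent bands than beside them, at 178 against 235 M a.u. in CONTROL 3 and 204 against 268 in MELANOMA ICI 1. Over all bands it was lower in 5 of 27.

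Values changed with distance from the packed objects with a short reach. In CONTROL 3 the median was 57 transcripts in packed objects, 48 in unpacked ones at most 12.5 µm from a packed centre, 40 at 25 to 50 µm, and 36 at 100 to 200 µm. Farther out it was higher again, 49 beyond 400 µm. The median of CONTROL ICI 3 went from 36 to 33, 17 and 6 at the same distances and stayed at 7 beyond 400 µm. That of MELANOMA ICI 1 went from 43 to 32, 25 and 20, with 24 beyond 400 µm. The share of objects with no transcript at 100 to 200 µm was 5.96%, 20.1% and 6.06%.

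DAPI and PolyT per volume fell to the level of the distant tissue within about 100 µm. DAPI per volume had medians of 606, 640 and 715 within 12.5 µm, and 396, 280 and 380 at 50 to 100 µm, close to the 352, 249 and 336 beyond 400 µm. PolyT per volume had medians of 355, 411 and 376 within 12.5 µm and 282, 275 and 283 at 50 to 100 µm. Volume went the other way, from 995, 1092 and 1051 µm3 within 12.5 µm to 1492, 1421 and 1535 µm3 at 50 to 100 µm.

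**Figure D4:**
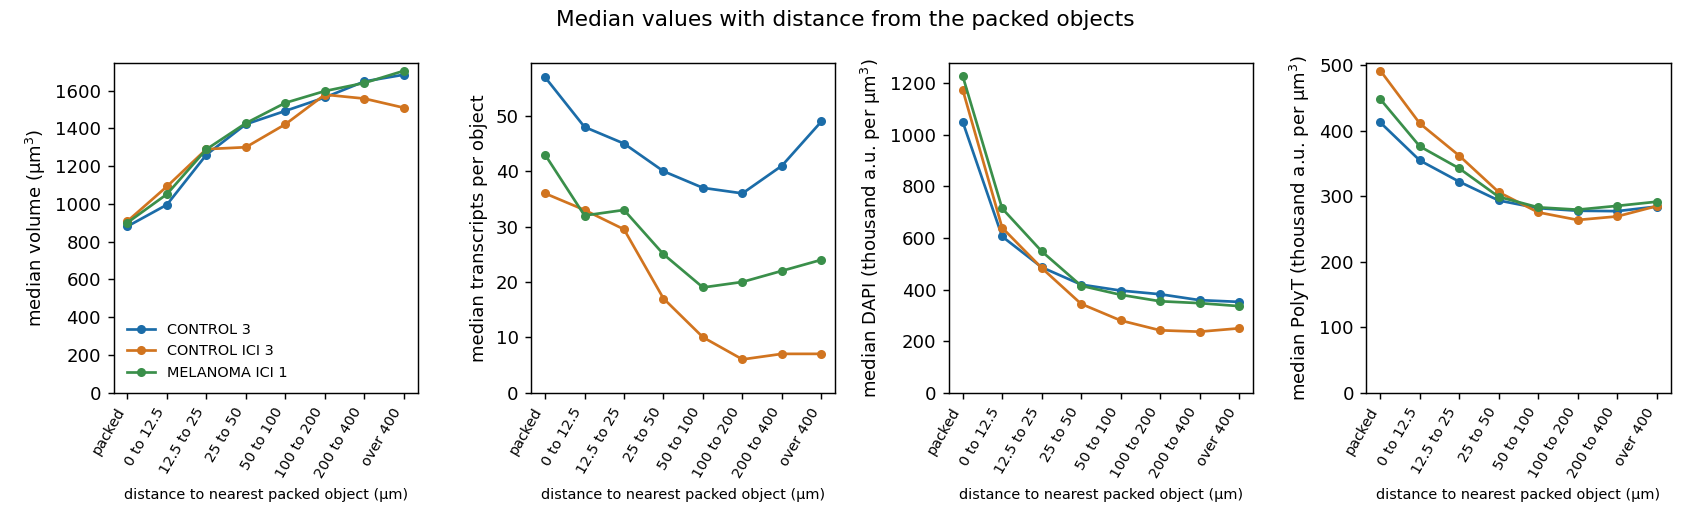
Median volume (µm3), transcripts per object, and DAPI and PolyT per volume (k a.u. per µm3) of packed objects and of unpacked objects in classes of distance to the nearest packed centre (µm), 1 line per section. DAPI and PolyT drop steeply over the first classes and level off near 100 µm, while transcripts in CONTROL 3 are higher again beyond 400 µm.

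Along the folded band members were most numerous near its middle. Cut into 5 equal parts of the path, the band of CONTROL 3 had 218, 229, 381, 288 and 128 members, with a median DAPI per volume of 1629, 1656, 2157, 2076 and 1296. That of MELANOMA ICI 1 had 187, 278, 706, 335 and 197 members, with 1828, 1968, 2013, 1598 and 1534. The median number of neighbours in these parts was 16, 16, 19, 18 and 15 in CONTROL 3. In MELANOMA ICI 1 it was 17, 19, 19, 18 and 16, so the middle part was no more crowded than the part before it. Transcripts per object ranged from 58.5 to 72 in CONTROL 3 and from 39 to 62 in MELANOMA ICI 1, and were not highest where members were most numerous. Across the band, members over 20 µm from any unpacked centre had a DAPI per volume of 2076 in CONTROL 3 and 1969 in MELANOMA ICI 1, and members with an unpacked centre within 10 µm had 1376 and 1371. Transcripts per object were 61 and 63.5 in CONTROL 3 and 46 and 46.5 in MELANOMA ICI 1 at these 2 places, and 71 and 53 in between. In band 1 of CONTROL ICI 3 DAPI per volume was 1760 in the core and 1176 at the edge, and transcripts were 38 in the core and 25 in the 38 members at the edge.

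Comparing packed and unpacked objects within the same imaging field gave smaller ratios in the same direction. Fields were used when they held at least 10 of each kind and both medians were above 0. For transcripts they numbered 65 in CONTROL 3, 35 in CONTROL ICI 3 and 63 in MELANOMA ICI 1, and for DAPI and PolyT 66, 36 and 63. Within them packed objects had 1.37, 1.68 and 1.45 times the transcripts per object, 2.17, 2.70 and 2.16 times the DAPI per volume, and 1.44, 1.61 and 1.47 times the PolyT per volume. The ratio of transcripts in CONTROL ICI 3 was thus 1.68 within fields and 4 over the whole section. The mean log2 ratio of transcripts over the sections was 0.58 within fields and 1.15 over whole sections.

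Between the conditions only values side by side can be given, as each has 1 section and no test is possible. Packed objects held 57 transcripts (CONTROL 3), 43 (MELANOMA ICI 1) and 36 (CONTROL ICI 3), and unpacked objects 41, 22 and 9 in the same order. The highest section exceeded the lowest by 1.58 times among packed objects and by 4.56 times among the others. PolyT per volume of packed objects was lowest in CONTROL 3 (413) and highest in CONTROL ICI 3 (492), while the unpacked medians lay within 1.03 times of each other. Packed volumes lay within 1.03 times of each other. CONTROL ICI 3 also covered a smaller piece of tissue, 4.01 by 2.63 mm against 6.42 by 5.22 mm for CONTROL 3 and 5.82 by 5.02 mm for MELANOMA ICI 1, so treatment, area and section cannot be told apart.

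The same rule was applied to the 8 sections of the other imaging runs, which it had not been made for. There it did not single out bands, since it took in 24.7% to 65.8% of objects and 97.0% to 100% of fields. The median distance from a packed object to its nearest neighbour was 1.30 to 2.06 µm there, against 8.03 to 8.07 µm in the large-object sections. Objects below 100 µm3 made up 32.7% to 38.1% of all objects there, against 0.303% to 0.318%. The rule thus need not pick out the same kind of object in both. Packed objects in those sections were smaller, with 0.592 to 0.667 times the median volume of the others, and the rule bears on volume. They held fewer transcripts than the others in 8 of 8 sections, with medians of 1 to 6 against 3 to 12. The mean log2 ratio was -0.997 ± 0.26 (SD, n = 8; 0.501-fold), with an exact sign-flip permutation p = 0.00781, the smallest that 8 sections allow, and 0.0313 after Benjamini-Hochberg adjustment over 4 measures. Transcripts per volume had a mean log2 ratio of -0.27 ± 0.19 and were lower in 7 of 8 sections (exact sign-flip permutation p = 0.0156, adjusted 0.0313). For both, the adjusted p was 0.0625 when any section other than CONTROL ICI 1 was left out, and 7 sections cannot give an exact sign-flip permutation p below 0.0156. The series has only 3 imaging runs, so these 8 sections share runs, which the tests over sections did not take into account. DAPI per volume had -0.063 ± 0.27 (exact sign-flip permutation p = 0.547, adjusted 0.547; higher in 4 of 8). PolyT per volume had -0.031 ± 0.063 (exact sign-flip permutation p = 0.227, adjusted 0.302; higher in 2 of 8). Against unpacked objects of like volume, the mean log2 ratio of transcripts was -0.16 both per object and per volume. Each then had an exact sign-flip permutation p = 0.0391, adjusted 0.0781. As an alternative, only objects with at least 10 transcripts were kept before neighbours were counted. The mean log2 ratio was then 0.29 per object and 1.15 per volume (exact sign-flip permutation adjusted p = 0.0104 for both). Transcripts thus helped choose this packed class, which is another set of objects, so its sign is no reversal for the packed objects above.

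The ratio of packed to other objects differed between the 3 large-object sections and the other 8. The difference of mean log2 ratios was 2.14 for transcripts per object, 2.16 for transcripts per volume, 1.84 for DAPI per volume and 0.69 for PolyT per volume. Each had p = 0.00606 by a two-sided exact permutation of the 11 section labels, which is the smallest of the 165 arrangements, and 0.00606 after Benjamini-Hochberg adjustment over the 4 measures. Without CONTROL ICI 3 the differences were 1.72, 1.82, 1.68 and 0.62, each with an exact permutation p = 0.0222, adjusted 0.0222. For each measure the lowest of the 3 sections lay above the highest of the 8. With only objects of at least 10 transcripts the differences for transcripts were 0.37 per object (exact permutation p = 0.0424, adjusted 0.0566) and 0.29 per volume (exact permutation p = 0.188, adjusted 0.188). Neighbours were then counted among those objects only, so the packed class was another set. The 3 sections were chosen by their imaging run and object size, so run, object size, object spacing and packing cannot be told apart in this difference.

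**Figure D5:**
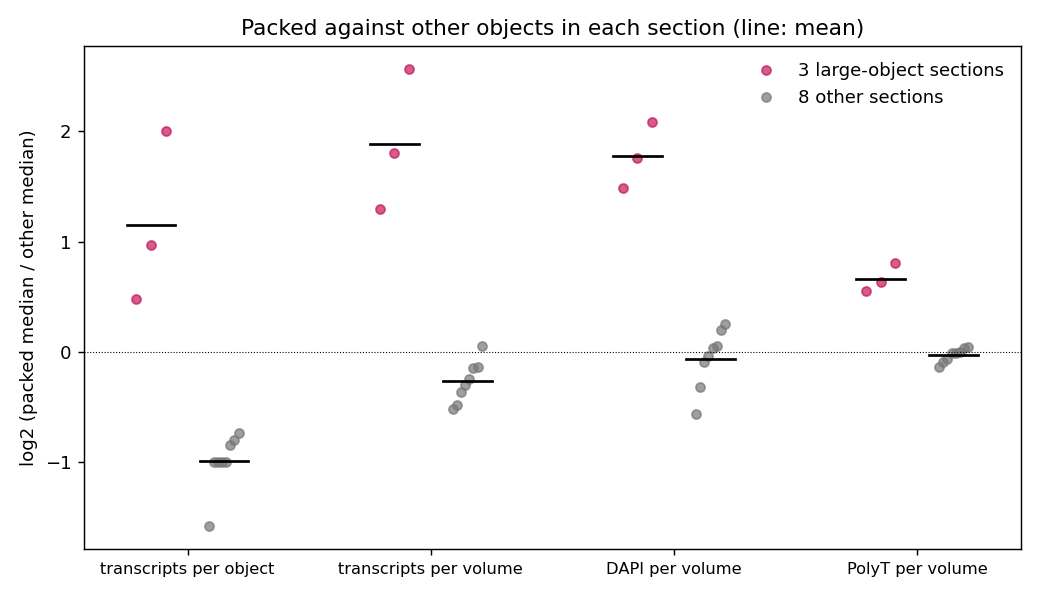
Log2 ratio of the packed to the other median in each of the 11 sections for 4 measures, with the 3 large-object sections in pink, the 8 other sections in grey and the mean of each as a line; the dotted line marks equal medians. For all 4 measures every pink point lies above every grey one.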

How the data were processed

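Each of the 11 sections has 1 deposited table with 17 columns and a line per segmented object. How objects were segmented, and with which software, is not given in the sources used here. Transcripts are deposited as raw counts, 1 total per object. Anisotropy is a ratio of axes, per the file headers. The shape scores named in the deposited headers, solidity among them, have no defined scale and were not reported. DAPI and PolyT are deposited as summed intensity per object in arbitrary units, which need not match between runs. Volumes and positions carry no unit and were taken as µm3 and µm.

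Python 3.11.15, numpy 2.4.6, scipy 1.17.1 and pandas 2.3.3 were used. Each section gave 1 ratio of medians per measure, packed over other, and log2 ratios were tested by exact sign-flip or exact permutation of section labels. Objects were not treated as replicates in any test. The Wilson intervals count objects as independent and cover counting error within a section only. The rule for bands was checked on simulated sections. The members, measures and tests were chosen with earlier results of these data known. Bands were numbered by members, and no genes were available to name. Alternatives were other radii, neighbour minima, volume floors and transcript filters, means, like-volume, near and same-field comparators, filtered stains and each section left out. The exact tests over sections measure only the spread between these sections, which the labels do not tie to separate animals. Sections that share an imaging run were treated as separate in them.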

Additional observations from a re-analysis of the deposited data

Results flagged for a closer look

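The contrast of packed with other objects differed between the 3 large-object sections and the other 8 by the exact permutation test of section labels, for each of the 4 measures tested. The difference of mean log2 ratios was 2.14 for transcripts per object, 2.16 for transcripts per volume, 1.84 for DAPI per volume and 0.69 for PolyT per volume. Packed objects were the higher class in 3 of 3 large-object sections for all 4 measures, and in 0, 1, 4 and 2 of the 8 other sections. The share of objects that the rule took in was 5.87% to 13.8% in the former and 24.7% to 65.8% in the latter. The median nearest-neighbour distance of packed objects was 8.03 to 8.07 µm in the former and 1.30 to 2.06 µm in the latter. With the densest 10% of objects taken in every section, an alternative chosen after seeing the data, the difference was 1.66 for DAPI per volume and 0.64 for PolyT per volume (exact permutation p = 0.00606 for both). That alternative gave no difference for transcripts, since packed objects of CONTROL ICI 2 then had a median of 0 transcripts, which has no log.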

How the results depend on the processing

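In the 3 large-object sections the log2 ratios for transcripts, DAPI and PolyT stayed above 0 under every alternative run, but their size changed. Transcripts per object ranged from 0.58 (within fields) to 1.90 (like volume), and transcripts per volume from 0.99 (within fields) to 2.19 (without CONTROL 3). DAPI per volume ranged from 1.15 (30 µm) to 2.40 (20 µm), with 1.27 for high-pass stains. PolyT per volume ranged from 0.34 (high-pass stains) to 0.87 (20 µm). The share of packed objects was 2.88% with a radius of 20 µm, 18.4% with 30 µm and 17.5% with at least 9 neighbours, and the mean largest set 393, 2202 and 1846 members. The volume ratio was -0.93, -0.64 and -0.67 in those settings, -0.89 with at least 10 transcripts and -0.52 within fields. In the other 8 sections transcripts per object had -0.64 (30 µm), -0.76 (others 50 to 150 µm away), -0.16 (like volume), -0.35 (at least 1 transcript) and 0.29 (at least 10), and -1.03 to -0.91 with a section left out. Transcripts per volume had -0.018 (30 µm), -0.14 (at least 9 neighbours), -0.16 (like volume), 0.13 (others 50 to 150 µm away), 0.21 (at least 1 transcript) and 1.15 (at least 10), and -0.32 to -0.24 with a section left out. DAPI per volume had 0.056 (30 µm), 0.012 (at least 9 neighbours), 0.23 (no volume floor) and 0.070 (others 50 to 150 µm away), and -0.11 to 0.0095 with a section left out. PolyT per volume had 0.052 (no volume floor), 0.31 (at least 10 transcripts), 0.00063 (others 50 to 150 µm away), -0.081 (200 µm3), -0.035 (within fields) and -0.079 (high-pass stains). The differences between the sections were 0.37 and 0.29 for transcripts per object and per volume with at least 10 transcripts. The cause of these shifts was not tested. Transcript filters were applied before neighbours were counted, so their packed objects are another set than those of the main rule. The filter of at least 1 transcript and the densest 10% of objects were chosen after seeing the data. Without a volume floor, or with the densest 10%, transcripts in the other 8 sections gave no value because packed objects of CONTROL ICI 2 had a median of 0. No paired analysis was possible between treatments by replicate number because the 3 sections carry numbers 3, 3 and 1, so their groups share fewer than 2. Packed and other objects were compared within each section, so the tests over sections are paired by section. With 1 section a treatment, section and treatment cannot be told apart. CONTROL ICI 3 had the fewest transcripts, so its ratios rest on the lowest counts.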
